A study of Mus musculus with 8 samples.

Results

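The heat shock proteins and their cochaperones were taken as a list of 37 gene symbols, which covers cytosolic, mitochondrial and small heat shock proteins, the cochaperones that work with them and the heat shock factors. All 37 were found among the 48440 entries of the count table, and all 37 passed the filter on low counts, which kept 13771 genes. The RNA came from purified cardiomyocytes, each library being made from the heart of a single C57BL6/J mouse of postnatal day 2. Litters 1 to 4 each contributed a brother and a sister, so there were 8 libraries, 4 per sex and 2 per litter, with no treatment or genetic change named in the labels. Sex and litter are therefore the comparisons that these data allow. The libraries are separate animals, but pups of a litter share their mother, and litter cannot be told apart from anything else that was shared by it, such as the day on which the cells were isolated.

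Heat shock proteins bind unfolded or partly folded proteins. HSP70 proteins take up and release such clients in a cycle driven by ATP, J-domain proteins (the Dnaj genes) hand clients to HSP70 and start that cycle, and HSP110 and BAG proteins release the spent nucleotide. HSP90 acts later, with cochaperones such as Stip1, Cdc37 and Ahsa1, on kinases, receptors and other clients. Small heat shock proteins hold clients without using ATP and are abundant in heart muscle, where they associate with the contractile and cytoskeletal filaments, while the HSP60 and HSP10 pair folds proteins inside mitochondria. Heat shock factor 1 induces many of these genes under stress by binding promoter elements made of inverted repeats of the bases GAA.

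To show which promoters of the list carry the letters of that element, the window from 250 bases before to 50 bases after each annotated start in RefSeq (build GRCm38.p6) was searched on both strands for TTCNNGAA or GAANNTTC, which are 2 adjoining units. Runs of 3 units in the same alternation, which contain the shorter form, were counted as well. The table held promoters for 29 of the 37 members. A match to 2 units was found for 16 of the 29 (55.2%), against 4587 of 27025 genes (17.0%), and a match to 3 units for 5 of the 29 (17.2%), against 179 genes (0.662%). The 5 members with 3 units were Hspd1, Hspe1, Hsph1, Dnajb6 and Chordc1. A match describes the letters and is not evidence of binding, and the lack of one says only that these letters are not in this window. The upstream sequences below are those of the stress-inducible HSP70 pair, whose 250 bases differ at 3 positions, and of Hspb1, the one small heat shock protein that was called higher in litter 3. Capitals mark the 2-unit matches, at -104 to -97 from the start in both HSP70 genes and at -117 to -110 and -97 to -90 in Hspb1.
Hspa1a (chr17:34972157-34972406, minus strand): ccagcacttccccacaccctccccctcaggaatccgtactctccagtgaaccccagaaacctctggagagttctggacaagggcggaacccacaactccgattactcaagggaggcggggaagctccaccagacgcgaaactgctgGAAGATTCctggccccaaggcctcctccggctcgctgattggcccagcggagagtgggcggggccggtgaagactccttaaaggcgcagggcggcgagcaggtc
Hspa1b (chr17:34959239-34959488, minus strand): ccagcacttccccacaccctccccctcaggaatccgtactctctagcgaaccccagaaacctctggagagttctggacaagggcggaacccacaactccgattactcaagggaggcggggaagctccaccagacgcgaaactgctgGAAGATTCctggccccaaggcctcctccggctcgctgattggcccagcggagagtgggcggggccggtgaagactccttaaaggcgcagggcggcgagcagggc
Hspb1 (chr5:135887669-135887918, plus strand): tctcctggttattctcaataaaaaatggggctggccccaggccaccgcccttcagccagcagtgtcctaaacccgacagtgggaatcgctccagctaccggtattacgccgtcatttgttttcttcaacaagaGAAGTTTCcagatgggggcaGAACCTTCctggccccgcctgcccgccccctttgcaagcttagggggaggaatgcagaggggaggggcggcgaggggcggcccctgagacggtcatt

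The stretches with 3 or more units are shown for 3 promoters, all in capitals because every base lies within a match. The stretch of Hspe1 at -89 to -72 (chr1:55088059-55088076, plus strand) also lies at -144 to -127 of an annotated start of Hspd1 on the opposite strand, since the genes of the HSP60 and HSP10 pair stand head to head.
Hspe1 and Hspd1: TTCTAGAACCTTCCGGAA
Dnajb6 (chr5:29735852-29735864, plus strand): GAATCTTCCGGAA
Chordc1 (chr9:18292263-18292285, plus strand, at -4 to 19): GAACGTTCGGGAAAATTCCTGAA

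Total counts ran from 14226342 to 24910243 per library. Members had mean counts between 50.6 (Hspa1a) and 46634.5 (Hspb7), with a median of 1960.0 against 403 for all tested genes, so counting error is small for all but a few. Values below are scaled CPM, which are CPM computed on library sizes scaled by TMM. Mitochondrially encoded genes took 18.5% of counts in the male of litter 4 and 13.4% to 15.2% in the others. Summed over the 10 cardiomyocyte markers, unscaled CPM were 70951 to 73415 in litter 3 and 77785 to 89918 in the other 6 libraries. By these sums the labelled cell type was present throughout. In litter 3, 5 of the 10 were called lower and 1 higher, against 14.8% and 13.6% of all genes. The 8 fibroblast markers summed to 33.1 to 53.0 in litter 3 and 105 to 246 elsewhere (6 of 8 called lower), and the 7 mural cell markers to 431 to 462 and 878 to 1079.7 (4 of 7 lower). The 8 endothelial markers summed to 18.4 to 20.0 and 15.98 to 151, the 6 atrial markers to 1333 to 1636 and 212 to 818, and the 6 erythroid markers to 189 to 543 and 100.1 to 249, again litter 3 first. Of the endothelial markers 5 were called lower in litter 3 and 0 higher, and of the erythroid markers 2 higher and 0 lower. The atrial sums do not speak for their whole list. Of its markers 1 was called higher and 1 lower in litter 3, with a median difference of -0.52 on the log2 scale. The 14 immediate-early genes, whose transcripts rise quickly when cells are stimulated, summed to 1671 to 1770.5 in litter 3 and 576 to 838 elsewhere, with 11 of 14 called higher and 1 lower. Litter 2 was shifted as well. Its endothelial markers summed to 82.4 to 151, and 8 of 8 were called higher, as were 6 of 8 fibroblast markers, against 3.3% of all genes. Of the immediate-early genes 9 of 14 were called lower in litter 2, against 0.879% of all genes. No marker gene of any list was at 0 in all libraries. The part of these shifts in the litter differences below was not tested, and in bulk RNA fewer cells of a type and less RNA per cell cannot be told apart.

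Levels differed widely within the list. Compared per length (RPKM, scaled CPM per kilobase of 1 transcript per gene), Hspb7 was the highest member at 767 ± 86.6 RPKM (mean ± SD, n = 8) and supplied 24.1% of all counts of the list. It was followed by the constitutive HSP90 Hsp90ab1 at 489 ± 68.7 RPKM, by Cryab (alpha B-crystallin) at 459.6 ± 18.3 RPKM and by the constitutive HSP70 Hspa8 at 339 ± 27.8 RPKM. Hsp90ab1 and Cryab lay within 1 SD of each other. The mitochondrial HSP70 Hspa9 reached 266 ± 27.1 RPKM and HSP60 (Hspd1) 178 ± 19.4 RPKM. Hspb1, Hspb6 and Hspb2 reached 199 ± 25.6, 174 ± 37.7 and 116 ± 14.3 RPKM, the BAG protein Bag1 154 ± 14.1 RPKM and the myosin chaperone Unc45b 111 ± 7.11 RPKM. Of the 7 small heat shock proteins, 5 were thus among the 10 highest members, while Hspb8 at 30.0 ± 4.83 RPKM and Hspb3 at 20.3 ± 3.18 RPKM lay below the median of the list. The inducible pair stood at the other end, with Hspa1b at 0.822 ± 0.397 RPKM and Hspa1a at 0.765 ± 0.290 RPKM, values that overlap. Of the 37 members, 33 were above the median of all tested genes with a length, which was 6.20 RPKM, and the median of the list was 36.2 RPKM. The list took between 0.838% and 0.957% of all raw counts in every library.

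**Figure D1:**
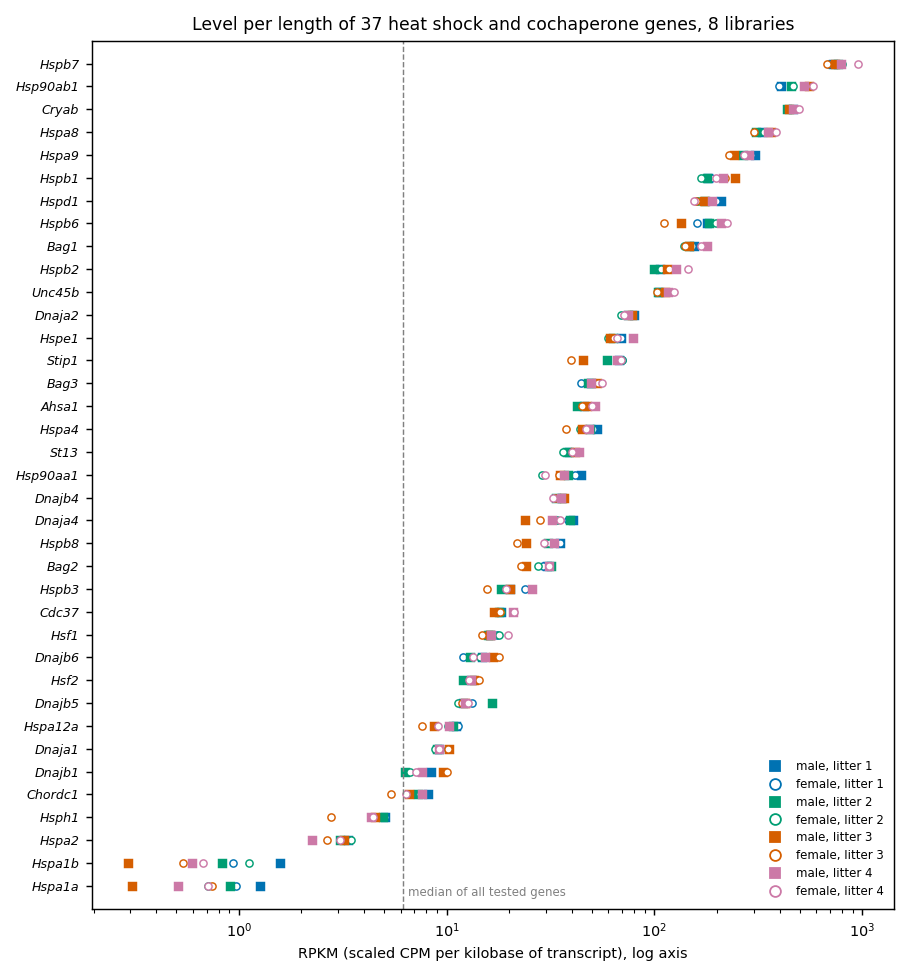
Level of each of the 37 members per length, in RPKM on a log axis, with 1 point per library, ordered by mean level. Hspb7, Hsp90ab1 and Cryab lie at the top and Hspa1a and Hspa1b lie lowest and spread most between libraries.

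Spread between libraries was smallest for Cryab, whose coefficient of variation was 3.97%, and largest for Hspa1b at 48.3% and Hspa1a at 37.9%. Reads of some members cannot be assigned with certainty. Over windows of 100 bases of each member's transcript, 21 members shared none with a transcript of another gene, and 11 shared at least 20%. Those were Hspa1a (56.5%) and Hspa1b (49.9%), which share with each other, Hspa8 (63.4%), Hsp90aa1 (47.5%), Hspb1 (56.3%), Hspd1 (26.9%), Hspe1 (22.4%), Dnaja1 (24.0%) and Dnajb6 (34.9%), which share mostly with pseudogenes, and Hspb2 (22.7%) and Dnaja4 (51.0%), which overlap Cryab and Wdr61 on the opposite strand. Whether counting used the strand is not given in the sources used here, so levels of these 11 members are uncertain.

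The comparison of the sexes asked whether chaperone RNA differs with the sex of the newborn. No member passed the threshold of an adjusted p of 0.05, where 0.0436% of all tested genes did, and 0 of 37 passed at an unadjusted p under 0.05, where 2.22% of all genes did. DESeq2 called 0 members as well. Differences, male minus female, ran from -0.11 on the log2 scale (Hsf1, the stress-responsive heat shock factor) to 0.20 (Hsp90aa1, the inducible HSP90), with standard errors of 0.07 to 0.44. Their median was 0.04 over the members and 0.00 over all genes, with 22 members above 0 and 15 below. Hsp90aa1 measured 146, 126, 116 and 120.0 scaled CPM in the males and 137, 94.4, 114 and 97.9 scaled CPM in the females of litters 1 to 4. Its male exceeded its sister in every litter, but the males and females overlapped across litters. With litter as a block, which the labels support, the difference of Hsp90aa1 was 0.21 (SE 0.07, adjusted p = 0.305), and 3 members (8.11%) had an unadjusted p under 0.05, against 11.6% of all genes. The other 2 were Hspa4, an HSP110-class exchange factor, at 0.13 (SE 0.05, adjusted p = 0.383) and Hspd1 at 0.14 (SE 0.05, adjusted p = 0.336), and 0 members passed after adjustment against 0.211% of all genes. The male was higher in all 4 litters for 7 members (18.9%), namely Hsp90aa1, St13, Hspa4, Dnaja2, Bag1, Hspd1 and Hspa9, against 10.9% of all genes. It was lower in all 4 for 1 member, Hspb2, against 9.36%.

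**Figure D2:**
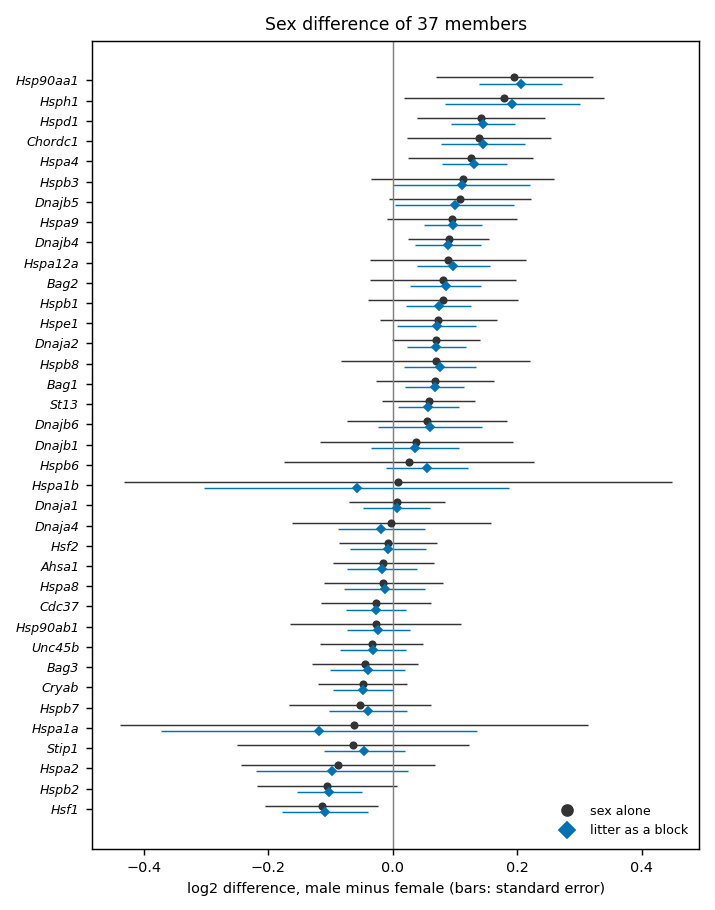
Male minus female difference of each member on the log2 scale with its standard error, from the fit of sex alone (circles) and with litter as a block (diamonds). Every difference from the fit of sex alone lies between -0.11 and 0.20, and no member passed the adjusted threshold in either fit.

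More members were called by litter than by sex. The litter test called 19 of the 37 members (51.4%), against 32.1% of all tested genes. Members had higher counts, at a median of 1960.0 against 403 for all tested genes, and the part of this in the shares called was not tested. The differences were small: the range of fitted litter means had a median of 0.33 on the log2 scale over the members and 0.37 over all genes, and of the 19 called members 17 had a range under 0.7. Called members had a median range of 0.41, against 0.54 for all called genes. By role, the called members were 3 of 7 HSP70 and HSP110 genes, both HSP90 genes, 5 of 7 small heat shock proteins, 2 of 3 mitochondrial chaperones, 2 of 7 J-domain proteins, 2 of 3 BAG proteins, 3 of 6 HSP90 cochaperones (with St13) and neither heat shock factor. Each litter was then set against the mean of the other 3, in 4 comparisons that share libraries, and these log2 differences carry the sign of litter minus the others. Litter 3 gave 14 called members (10 lower, 4 higher), against 28.3% of all genes (14.8% lower, 13.6% higher). Litter 1 gave 10 (9 higher, 1 lower), against 13.3% of all genes (7.86% higher, 5.41% lower). Litter 4 gave 6, all higher, against 10.5% of all genes (4.71% higher, 5.8% lower). Litter 2 gave 2, both lower, against 4.18% of all genes (3.3% higher, 0.879% lower). With both libraries of litter 3 left out, the litter test called 6 members, namely Hsp90aa1, Hsp90ab1, Hspb2, Hspb6, Hspd1 and Bag1, against 13.7% of all genes. Without both libraries of litter 1 it called 11 members, against 22.7%, and it called 11 without the male of litter 1 alone, against 21.5% of all genes, and 12 without its female alone, against 21.4%. Without litter 2 it called 20, against 33.4% of all genes, and without litter 4 it called 15, against 26.6%.

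**Figure D3:**
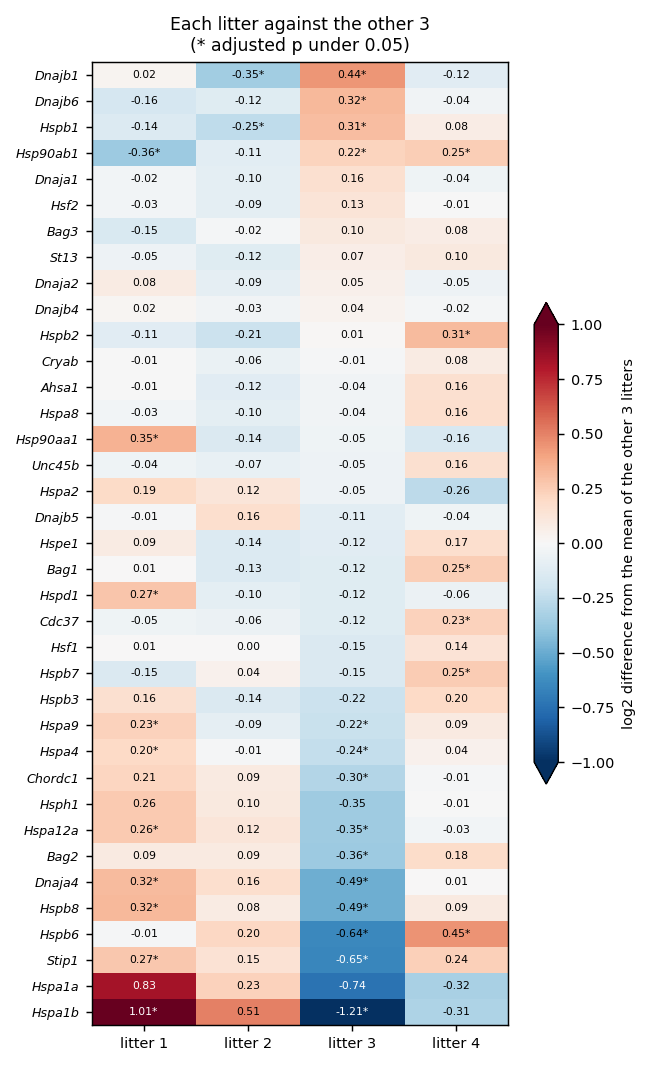
Each litter minus the mean of the other 3, on the log2 scale, for all 37 members, with called differences marked. The 14 marked differences of litter 3 include both directions, whereas those of litter 4 are all higher.

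Apart from Hspa1a and Hspa1b, the widest litter ranges were those of Hspb6 and of the cochaperone Stip1, at 0.82 and 0.69 on the log2 scale. Stip1, which bridges HSP70 and HSP90, measured 143, 124, 95.1 and 139 scaled CPM in the males and 147, 148, 83.7 and 145 scaled CPM in the females of litters 1 to 4. Both libraries of litter 3 lay below the other 6. The litter 3 difference of Stip1 was -0.65 (SE 0.08, adjusted p = 0.000123), a fold of 0.637. Litter 1 differed by 0.27 (SE 0.07, adjusted p = 0.0324), a call lost without its male, at 0.27 (adjusted p = 0.254), or its female, at 0.27 (adjusted p = 0.265). Without both libraries of litter 3 the litter 1 difference of Stip1 was 0.06 (adjusted p = 0.636). Chordc1, which binds HSP90 and carries the long repeat printed above, measured 46.9, 42.0, 38.4 and 44.2 scaled CPM in the males and 43.9, 43.2, 31.4 and 36.98 scaled CPM in the females of litters 1 to 4. The female of litter 3 was lowest, while its male lay within the range of the other 6. The difference of litter 3 was -0.30 (SE 0.08, adjusted p = 0.0171), and without that female it was -0.21 (adjusted p = 0.222). Without both libraries of litter 1 it was -0.25 (adjusted p = 0.0665). Cdc37, which brings kinases to HSP90, measured 143, 141, 133 and 164 scaled CPM in the males and 143, 143, 141 and 165 scaled CPM in the females of litters 1 to 4. Both libraries of litter 4 were higher than the others, at 0.23 (SE 0.05, adjusted p = 0.0232), and without its female the difference was 0.24 (adjusted p = 0.104). Ahsa1, which stimulates the HSP90 ATPase, St13, which binds HSP70, and Unc45b were not called by litter, at 58.2 to 71.3 scaled CPM, 122 to 145 scaled CPM and 367 to 443 scaled CPM.

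Of the small heat shock proteins, Hspb6 showed the smallest adjusted p of the list in the litter test, with a range of 0.82 (adjusted p = 0.000487), the only litter call that held under all 20 alternatives. It measured 244, 249, 183 and 284 scaled CPM in the males and 219, 268, 151 and 303 scaled CPM in the females of litters 1 to 4. Litter 3 was lowest and litter 4 highest, with no overlap with the other libraries in either case. The difference was -0.64 (SE 0.08, adjusted p = 0.000147) in litter 3 and 0.45 (SE 0.07, adjusted p = 0.00532) in litter 4. Hspb8, which works with Bag3 in clearing damaged filament proteins, measured 63.9, 56.1, 43.8 and 59.6 scaled CPM in the males and 63.5, 56.2, 39.6 and 53.4 scaled CPM in the females of litters 1 to 4. Litter 3 lay below and litter 1 above the other 6 libraries, at -0.49 (SE 0.07, adjusted p = 0.000359) and 0.32 (SE 0.06, adjusted p = 0.00698). Hspb1 went the other way and measured 163, 162, 221 and 193 scaled CPM in the males and 169.7, 152, 198 and 179 scaled CPM in the females of litters 1 to 4. Litter 3 was above every other library, and litter 2 below every other library. The differences were 0.31 (SE 0.06, adjusted p = 0.00267) in litter 3 and -0.25 (SE 0.06, adjusted p = 0.0409) in litter 2, and without the male of litter 3 the first was 0.25 (adjusted p = 0.0632). The pseudogene that shares 56.3% of the windows of Hspb1 did not exceed 1.95 scaled CPM. Hspb2 measured 82.4, 77.1, 88.9 and 98.5 scaled CPM in the males and 86.7, 83.2, 91.0 and 112 scaled CPM in the females of litters 1 to 4 and was higher in litter 4, at 0.31 (SE 0.06, adjusted p = 0.00908). Hspb7, the cardiac small heat shock protein, measured 1993, 2122, 2041 and 2190.2 scaled CPM in the males and 1925, 2209, 1879 and 2641 scaled CPM in the females of litters 1 to 4. Its difference in litter 4 was 0.25 (SE 0.07, adjusted p = 0.0437), but the female of that litter stood alone at the top, and without it the difference was 0.09 (adjusted p = 0.499). Cryab (484 to 554 scaled CPM) and Hspb3 (12.2 to 20.2 scaled CPM) were not called by litter.

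**Figure D4:**
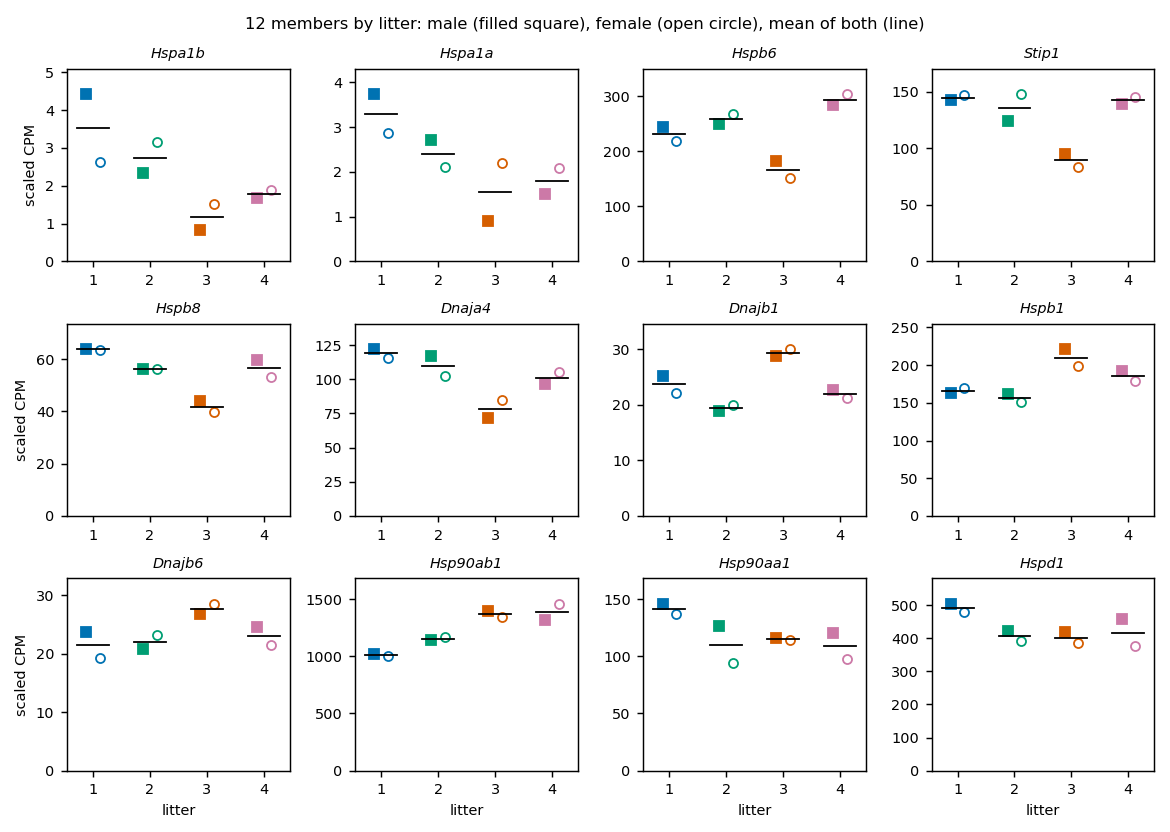
Scaled CPM of selected members in every library, by litter, with males filled and females open. In litter 3 both libraries are lowest for Stip1, Hspb6 and Hspb8 and highest for Hspb1 and Dnajb1.

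The inducible HSP70 genes Hspa1a (chr17:34969190-34972156) and Hspa1b (chr17:34956436-34959238, both GRCm38, minus strand, protein coding) had the widest litter ranges of the list and the fewest reads. Hspa1a measured 3.73, 2.703, 0.911 and 1.51 scaled CPM in the males and 2.88, 2.11, 2.20 and 2.10 scaled CPM in the females of litters 1 to 4, from 21 to 93 counts. Hspa1b measured 4.42, 2.33, 0.824 and 1.68 scaled CPM in the males and 2.63, 3.15, 1.51 and 1.89 scaled CPM in the females of litters 1 to 4, from 19 to 110 counts. Litter 1 was above the other 6 libraries for Hspa1a and litter 3 below them for Hspa1b. The coding sequences have 1923 and 1926 bases, of which 1915 are identical (99.4%), so the counts of both were also summed into 1 gene. The sum was 8.15, 5.03, 1.74 and 3.18 CPM in the males and 5.51, 5.26, 3.72 and 3.99 CPM in the females of litters 1 to 4. Litter 1 exceeded the mean of the others by 0.92 (SE 0.22, adjusted p = 0.0197), and litter 3 was lower, at -0.96 (SE 0.27, adjusted p = 0.0208). Each rested on 1 library: without the male of litter 1 the first was 0.39 (adjusted p = 0.508), and without the male of litter 3 the second was -0.38 (adjusted p = 0.405). Taken alone, Hspa1b was called in the same litters, at 1.01 (SE 0.26, adjusted p = 0.0253) and -1.21 (SE 0.33, adjusted p = 0.0174), and Hspa1a had a litter range of 1.18 (adjusted p = 0.0793). Without the male of litter 1 the litter 1 difference of Hspa1b was 0.36 (adjusted p = 0.611), and with DESeq2 it was 1.02 (adjusted p = 0.0586). Its litter 3 difference was -0.72 (adjusted p = 0.280) without the male of litter 3. By sex the sum differed by -0.03 (SE 0.39, adjusted p = 1.00).

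Other HSP70 genes moved less. Hspa12a, a distant relative of HSP70, measured 63.4, 61.5, 49.7 and 58.9 scaled CPM in the males and 65.4, 58.0, 43.8 and 52.0 scaled CPM in the females of litters 1 to 4. Litter 3 was below and litter 1 above all other libraries, at -0.35 (SE 0.07, adjusted p = 0.00346) and 0.26 (SE 0.07, adjusted p = 0.0229), and without the female of litter 3 the first was -0.30 (adjusted p = 0.0673). Without the female of litter 1 the second was 0.17 (adjusted p = 0.464). Hspa4 measured 244, 226, 207 and 224 scaled CPM in the males and 234, 203, 173 and 216 scaled CPM in the females of litters 1 to 4. The mitochondrial Hspa9 measured 926, 814, 738 and 867 scaled CPM in the males and 889, 724, 699 and 819.5 scaled CPM in the females of litters 1 to 4. Both were highest in litter 1, at 0.20 (SE 0.06, adjusted p = 0.0426) and 0.23 (SE 0.05, adjusted p = 0.0168). In litter 3 they were lower, at -0.24 (SE 0.06, adjusted p = 0.0130) and -0.22 (SE 0.05, adjusted p = 0.0110). Without the female of litter 3 these were -0.16 (adjusted p = 0.245) and -0.24 (adjusted p = 0.0855), and without its male Hspa9 was at -0.21 (adjusted p = 0.104). Without both libraries of litter 1 the litter 3 differences were -0.19 (adjusted p = 0.0766) for Hspa4 and -0.16 (adjusted p = 0.115) for Hspa9. Hspd1, which folds proteins in the mitochondrial matrix, measured 506, 423, 419 and 457 scaled CPM in the males and 481, 392, 385 and 378 scaled CPM in the females of litters 1 to 4 and was higher in litter 1, at 0.27 (SE 0.06, adjusted p = 0.00951). Its partner Hspe1 was not called (46.3 to 61.0 scaled CPM), nor were Hspa8 (723 to 923 scaled CPM), Hspa2 (5.70 to 8.73 scaled CPM) and Hsph1 (10.5 to 19.3 scaled CPM).

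The HSP90 genes differed in opposite directions in litter 1. Hsp90ab1 measured 1021, 1145, 1396 and 1320.0 scaled CPM in the males and 1002, 1165, 1345 and 1463 scaled CPM in the females of litters 1 to 4. Litter 1 was below the other 6 libraries, at -0.36 (SE 0.06, adjusted p = 0.00245). The inducible Hsp90aa1, whose values are given with the sexes, was above them, at 0.35 (SE 0.07, adjusted p = 0.0101). Hsp90ab1 was higher in litter 3, at 0.22 (SE 0.06, adjusted p = 0.0142) and in litter 4, at 0.25 (SE 0.06, adjusted p = 0.0201), although litters 3 and 4 overlapped. Without the female of litter 1 the litter 3 difference was 0.21 (adjusted p = 0.0525), without the male of litter 3 it was 0.17 (adjusted p = 0.187), and without its female 0.27 (adjusted p = 0.0553). Without both libraries of litter 1 the differences were 0.11 (adjusted p = 0.301) in litter 3 and 0.14 (adjusted p = 0.234) in litter 4, and without the female of litter 4 the latter was 0.16 (adjusted p = 0.191).

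In litter 3, 3 of the 7 J-domain proteins were called, 2 higher and 1 lower, against 28.3% of all genes. Dnajb1, the main stress-inducible HSP40, measured 25.2, 19.0, 28.8 and 22.7 scaled CPM in the males and 22.1, 20.1, 30.1 and 21.3 scaled CPM in the females of litters 1 to 4. Litter 3 was above and litter 2 below the rest, at 0.44 (SE 0.08, adjusted p = 0.00201) and -0.35 (SE 0.08, adjusted p = 0.0381). Dnajb6, which keeps aggregation-prone proteins soluble, measured 23.6, 20.7, 26.8 and 24.6 scaled CPM in the males and 19.3, 23.2, 28.6 and 21.4 scaled CPM in the females of litters 1 to 4. Litter 3 was higher, at 0.32 (SE 0.10, adjusted p = 0.0261), but Dnajb6 was not called by the litter test, with a range of 0.36 (adjusted p = 0.0863). Without the female of litter 3 the difference was 0.22 (adjusted p = 0.287), and with DESeq2 it was 0.33 (adjusted p = 0.0561). That call was also lost at 0.27 (adjusted p = 0.0605) without the female of litter 1, 0.28 (adjusted p = 0.0510) without the male of litter 2 and 0.29 (adjusted p = 0.0526) without the female of litter 4. Dnaja4 measured 122, 117, 71.8 and 96.8 scaled CPM in the males and 116, 102, 85.0 and 106 scaled CPM in the females of litters 1 to 4, and litter 3 was lower, at -0.49 (SE 0.08, adjusted p = 0.00129) while litter 1 was higher, at 0.32 (SE 0.08, adjusted p = 0.0207). Wdr61, which overlaps Dnaja4, differed in litter 3 by 0.05 (adjusted p = 0.690). Dnaja1 (49.3 to 57.4 scaled CPM), Dnaja2 (201 to 232 scaled CPM), Dnajb4 (80.0 to 90.8 scaled CPM) and Dnajb5 (37.6 to 54.6 scaled CPM) were not called by litter.

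Among BAG proteins, which bind the HSP70 ATPase domain, Bag2 measured 56.3, 58.8, 44.7 and 57.5 scaled CPM in the males and 53.9, 51.2, 42.2 and 57.9 scaled CPM in the females of litters 1 to 4. Both libraries of litter 3 lay below the other 6, at -0.36 (SE 0.07, adjusted p = 0.00244). Bag1 measured 166, 157, 157 and 192 scaled CPM in the males and 162, 149, 150.0 and 180.0 scaled CPM in the females of litters 1 to 4 and was higher in litter 4, at 0.25 (SE 0.05, adjusted p = 0.0162). Without the male or the female of litter 4 this was 0.23 (adjusted p = 0.120) or 0.26 (adjusted p = 0.0760). Bag3, the partner of Hspb8 in heart muscle, spanned 113 to 144 scaled CPM and was not called. The factors Hsf1 (30.8 to 41.0 scaled CPM) and Hsf2 (31.1 to 37.2 scaled CPM) were not called by litter, with ranges of 0.21 and 0.17.

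Of the 19 calls of the litter test, those of Hspb7 and Cdc37 were each lost in 13 of 20 alternatives, that of Chordc1 in 8, DESeq2 (adjusted p = 0.0878) and the fit with no sex term (adjusted p = 0.115) included, and that of Hspa4 in 6. That of Hspb6 was lost in 0 and the other 14 in 1 to 4 each. Of the 14 litter 3 calls, 6 held under all 19 alternatives, those of Stip1, Hspb6, Hspb8, Dnaja4, Dnajb1 and Bag2. Leaving out both libraries of litter 1 ended 4 of the 14, those of Hsp90ab1, Hspa4, Hspa9 and Chordc1. Both libraries of litter 3 lay above the other 6 for 5 members, against 15.1% of all genes, and below them for 7, against 16.4%. For litter 1 these counts were 8 above (8.89% of all genes) and 1 below (8.67%), for litter 2 they were 0 above (4.79%) and 4 below (3.6%), and for litter 4 they were 6 above (8.23%) and 0 below (8.8%). All 10 litter 1 calls were lost without its male, and 9 of them, with the exception of Hspa1b, without its female. The sizes moved less than the calls: the 8 higher members other than Hspa1b had differences of 0.20 to 0.35 with both libraries, 0.25 to 0.42 without the male and 0.15 to 0.38 without the female, and Hsp90ab1 had -0.36, -0.40 and -0.33. Without both libraries of litter 3, Hsp90aa1, Hsp90ab1 and Hspd1 kept their litter 1 call and the others lost theirs. Hspb8, Dnaja4, Hspa9, Hspa12a, Hspa4 and Stip1 were then at 0.18, 0.17, 0.17, 0.16, 0.14 and 0.06, and Hspa1b at 0.66. The male of litter 2, left out, ended the litter 1 calls of Hspa1b, Hspa4 and Stip1, that of Hspa4 was also lost when the females of litter 2 or 3 or the male of litter 4 were dropped, and that of Hspa1b without the male of litter 3. In litter 4, where 6 of 10 cardiomyocyte and 6 of 8 fibroblast markers were called higher too (their part was not tested), all 6 calls were lost without its female (Hspb6 at 0.35 and Hspb2 at 0.25), 4 remained without its male, 2 and 3 when the male or the female of litter 1 was dropped, and library size in place of TMM scaling left 2, Hspb2 and Hspb6. The litter 4 call of Hspb7 was lost in 12 of 19 alternatives, also without the male of litter 2, the female of litter 2, the female of litter 3, or both libraries of litter 1 or litter 3 (adjusted p = 0.113 and 0.0527). It was lost as well with DESeq2 size factors (adjusted p = 0.0511), a filter at a mean of 50 counts (adjusted p = 0.0506) or no sex term (adjusted p = 0.0729). That of Cdc37 was lost in 6 of 19, also without both libraries of litter 1, at 0.24 (adjusted p = 0.0511). The litter 2 calls of Dnajb1 and Hspb1 were lost in 10 and 9 of 19 alternatives, and both were lost when either of its own libraries or the male of litter 4 was dropped, and with library size alone, a filter at a mean of 50 counts or no sex term. In those fits Hspb1 was at -0.27 to -0.22 and Dnajb1 at -0.42 to -0.27, and without both libraries of litter 3 they were at -0.17 (adjusted p = 0.238) and -0.23 (adjusted p = 0.243). Of the 16 members with a 2-unit match, 2 were called higher and 5 lower in litter 3, and of the 13 without one, 1 higher and 4 lower, while of the 8 without a listed promoter 1 was higher and 1 lower. Over all genes 13.6% were called higher and 14.8% lower in litter 3.

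Other chaperone genes outside the list differed by litter as well, and 64 of 66 listed were tested. The litter test called 29 of them, against 32.1% of all genes, and 0 were called by sex. Litter 3 gave 25, of which 8 were higher and 17 lower, against 28.3% of all genes (13.6% higher, 14.8% lower). Scaled by library size only, litter 3 gave 23, of which 11 were higher and 12 lower. The share of all genes was not counted under that scaling, which moved the litter 3 median of all genes by 0.04. Fkbp5, an HSP90 cochaperone of steroid receptors that glucocorticoids induce, had a litter range of 1.81, wider than that of any member. It measured 8.11, 7.86, 21.1 and 5.42 scaled CPM in the males and 9.30, 11.0, 24.8 and 7.72 scaled CPM in the females of litters 1 to 4. Both libraries of litter 3 were above all others, at 1.50 (SE 0.10, adjusted p = 1.61e-06). Fkbp5 was lower in litter 4, at -0.91 (SE 0.12, adjusted p = 0.00214), and in litter 1, at -0.36 (SE 0.11, adjusted p = 0.0481). Hspa12b, at only 0.602 to 3.55 scaled CPM, had a wider litter range of 2.17 (adjusted p = 0.00867). It was higher in litter 2, at 1.73 (SE 0.33, adjusted p = 0.0107). Smyd1, a heart and muscle methyltransferase that acts with Unc45b on myosin, was lower in litter 3, at -0.35 (SE 0.06, adjusted p = 0.00108). In litter 4 Smyd1 was higher, at 0.27 (SE 0.06, adjusted p = 0.0141). Of the 6 prefoldin genes, whose complex passes new actin and tubulin to the chaperonin, 5 were called by litter and 4 were higher in litter 4 (4.71% of all genes), Pfdn5 at 0.32 (SE 0.06, adjusted p = 0.00855). The TRiC chaperonin had 5 of 8 called by litter, with 2 lower in litter 2 (0.879% of all genes), 2 higher in litter 4 and 1 higher in litter 3, the other J-domain proteins 7 of 13 and the other HSP90 cochaperones and myosin chaperones 4 of 13. The other HSP70 genes had 3 of 9 called, the other mitochondrial chaperones 2 of 9 and the remaining heat shock factors and regulators 3 of 6.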

How the data were processed

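RNA was sequenced from purified cardiomyocytes of 8 pups. The labels name a stranded kit for total RNA and reads of 100 bases, but give the molecule as poly(A) RNA, and which applies was not settled here. Per the submitters' processing notes, STAR 2.7.3a and the mm10 build were used. The counting program, the annotation and the use of strand are not given in the sources used here. The authors deposited raw read counts per gene symbol, and no column belonged to another sample.

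From these counts, genes were filtered with filterByExpr on sex and scaled with TMM in edgeR 4.0.16 (R 4.3.3, limma 3.58.1). For sex, edgeR's quasi-likelihood F test was used without a litter term (6 residual degrees of freedom). Litters were compared in a model with sex (3 residual degrees of freedom), by a test of all litter coefficients together, whose size is the range of the fitted litter means, and by each litter minus the mean of the other 3. Benjamini-Hochberg adjustment ran over all 13771 genes, with a threshold of 0.05, and each standard error is the log2 difference divided by the square root of F. Lengths, shared windows and positions came from GENCODE M21 on GRCm38, and promoters from the RefSeq table. Intervals and tests cover counting error and the spread between these animals only.

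Sample numbers are litters in the labels, so brother and sister form a pair. Deviations from the mean of each sex correlated across genes at 0.367 to 0.696 within litters and at -0.482 to 0.270 between litters. Libraries of the same sex differed by 9.56 to 44.9 chi-square per degree of freedom, so none repeated another. Alternatives were library size alone, DESeq2 size factors, DESeq2 1.42.0, no filter, a mean of at least 50 counts, mitochondrially encoded genes left out, no sex term, Hspa1a and Hspa1b summed, and each library or litter left out.

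Scripts were tested on simulated counts. The litter test returned a larger share of false calls than its threshold states, also when the spread of each gene was drawn as the fit models it. The share was larger still when the spread was drawn from each gene's own estimate, and some calls were then made with no gene changed. Litter calls close to the threshold are therefore the least certain. The 37 members and the other lists were chosen with earlier results of these data known. The rule for values in every library took members called by litter with a range of at least 1 on the log2 scale, members called by sex, and Hspa1a and Hspa1b. It was widened to all members called by litter or in a comparison of 1 litter with the others after their values had been seen. From each list of other chaperone genes, at most the 2 with the smallest adjusted p by litter could be named.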

Additional observations from a re-analysis of the deposited data

Results flagged for a closer look

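In 74 groups of 4 libraries (each member within each sex), 6 had a library whose gap to the nearest other was large against the range of the group by Dixon's criterion, where chance alone gives about 1 in 20 groups, or 3.7 here. Stip1 in the females was 83.7 scaled CPM in litter 3 and 145 to 148 in the others. Dnaja1 in the males was 57.4 scaled CPM in litter 3 and 50.8 to 51.5 in the others. Cdc37 in the females was 165 scaled CPM in litter 4 and 141 to 143 in the others. Hspa1a in the females was 2.88 scaled CPM in litter 1 and 2.10 to 2.20 in the others, and Hspd1 in the females was 481 scaled CPM in litter 1 and 378 to 392 in the others. Dnajb5 in the males was 54.6 scaled CPM in litter 2 and 39.6 to 40.5 in the others. For 5 of these the other pup of the litter deviated in the same direction from the rest of its sex, and for Dnajb5 it did not.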

How the results depend on the processing

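Of 51 called member results, 7 held under every alternative run, none changed sign, and 178 of 985 refits lost a call, the cause of which was not tested. With litter as a replicate block, 0 members were called by sex, as without it, and no paired fit changed a call. Members called numbered 0 by sex under every library left out, 6 to 20 by litter, 0 to 14 in litter 1, 0 to 6 in litter 2, 9 to 16 in litter 3 and 0 to 8 in litter 4. Litter 1 had 5 without the sex term. Litter 2 had 0 with library size alone, a mean of 50 counts or no sex term, and 1 with DESeq2. Litter 4 had 2 with library size alone. For refits of a single litter against the others the share of all genes was not counted, so these counts have no background. With libraries left out, the summed Hspa1a and Hspa1b ranged from -0.49 to 0.24 by sex (reversed at 0.07 without female 1, 0.03 without female 2, 0.24 without male 3, 0.10 without male 4, 0.15 without litter 3 and 0.03 without litter 4), 0.90 to 2.03 by litter (0.99, adjusted p = 0.0536, without male 1), 0.39 to 1.38 in litter 1 and -1.59 to -0.38 in litter 3. The chaperones outside the list had 24 called by litter and 23 in litter 3 (11 higher, 12 lower, against 8 and 17) with library size alone, where the share of all genes was not counted. No scaling moved the median of all genes by over 0.08. A litter left with 1 library was assumed to vary like the others. Hspa1a and Hspa1b, with 19 to 110 counts a library, are the members that depth limits most.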
